A study of Mus musculus with 9 samples.

Results

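Marker genes of the CA2 and CA3 pyramidal neurons were compared between the hippocampi of 4 Nestin;BrafKE/+ and 5 Braf+/+ mice. The set holds 10 of the 18275 genes in the deposited table and was chosen by gene symbol. The CA3 markers were Bok, Coch, Homer3, Cpne4, Iyd and Prss35, and the CA2 markers were Pcp4, Rgs14, Cacng5 and Map3k15. All 10 had a mean normalised signal of at least 10 and were among the 16196 genes tested. Nestin;BrafKE/+ mice carry 1 Braf allele with the K499E substitution, a gain-of-function change numbered on the human protein. The allele is switched on by Nestin-Cre, which acts in embryonic neural stem cells, so that both neurons and glia of the hippocampus inherit it. Braf+/+ mice were littermates without the mutant allele, and the sources used here do not say whether they carried Nestin-Cre. All animals were adult males labelled C57BL/6N, and each library was made from dissected hippocampal tissue of 1 animal. By their names the libraries form 3 series, which were entered in the fit since the batches the authors adjusted for are not named. The mutant libraries were spread over them as replicate 1 (A), replicates 2 and 3 (B) and replicate 4 (C), and the controls as replicates 1 to 3 (A), replicate 4 (B) and replicate 5 (C).

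Pyramidal neurons of the hippocampus form a chain of fields. Granule cells of the dentate gyrus send mossy fibres to CA3, whose neurons excite each other through recurrent axons and project through the Schaffer collaterals to CA1. CA2 is a narrow field between CA3 and CA1, known for resistance to long-term potentiation at its Schaffer collateral synapses and for a role in social memory. Each field expresses its own set of genes, by which its neurons can be told from their neighbours in tissue. In bulk tissue, fewer cells of a field and less RNA per cell cannot be told apart, and several of these genes are also expressed outside the hippocampus or by other cells.

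The data are normalised signals, that is, read counts that the authors had adjusted for batches and scaled between libraries. Library totals ran from 19551312 to 20091532, and the adjustment leaves the number of reads behind a value unknown. Braf itself was lower in all 4 mutant libraries (2264 ± 144, SD, n = 4) than in all 5 controls (2786 ± 153, SD, n = 5), which gave -0.30 as log2 fold change (SE 0.07, adjusted p = 0.0378 in limma). Markers of CA1 and of dentate granule cells were present in every library. The summed signal of 8 CA1 markers ran from 16417 to 16837 in Nestin;BrafKE/+ and from 13738 to 14300 in Braf+/+. That of 9 dentate granule markers ran from 9036 to 9499 in Nestin;BrafKE/+ and from 9416 to 9864 in Braf+/+. Choroid plexus markers varied widely between libraries. The summed signal of 6 of them (Ttr, Kl, Folr1, Clic6, Kcnj13 and Aqp1) ran from 1367 to 24119 in Nestin;BrafKE/+ and from 4410 to 391530 in Braf+/+, and Braf+/+ replicates 2 and 4 held the most, with sums of 391530 and 113060.

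None of the 10 marker genes differed between genotypes at an adjusted p under 0.05, in a limma fit with genotype and series as terms and adjustment over all genes tested, against 2.88% of all genes (1.36% lower and 1.52% higher in Nestin;BrafKE/+). The 2 nearest to the threshold were both lower in Nestin;BrafKE/+: Iyd at 0.43 times the control level (adjusted p = 0.0505) and Rgs14 at 0.82 times (adjusted p = 0.0934). An unadjusted p under 0.05 was found for 6 of the 10 in the same fit, against 18.5% of all genes (9.61% lower and 8.86% higher). Of these, Iyd, Rgs14, Map3k15, Cpne4 and Prss35 were lower and Pcp4 was higher in Nestin;BrafKE/+. Counting all 10, the log2 fold change was below 0 for 7 and above 0 for 3, and its median was -0.25, against 0.00 for all genes tested. The median of the absolute log2 fold change was 0.31, against 0.12. For 2 of the 10, Iyd and Rgs14, no value of a mutant library lay within the range of the controls, both being lower in Nestin;BrafKE/+, against 8.13% of all genes in that direction, 7.62% in the other and 15.7% in either. The fields differed in this respect as a description: 5 of 6 CA3 markers had the lower level in Nestin;BrafKE/+, with a median log2 fold change of -0.28, and 2 of 4 CA2 markers did, with a median of -0.03.

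**Figure D1:**
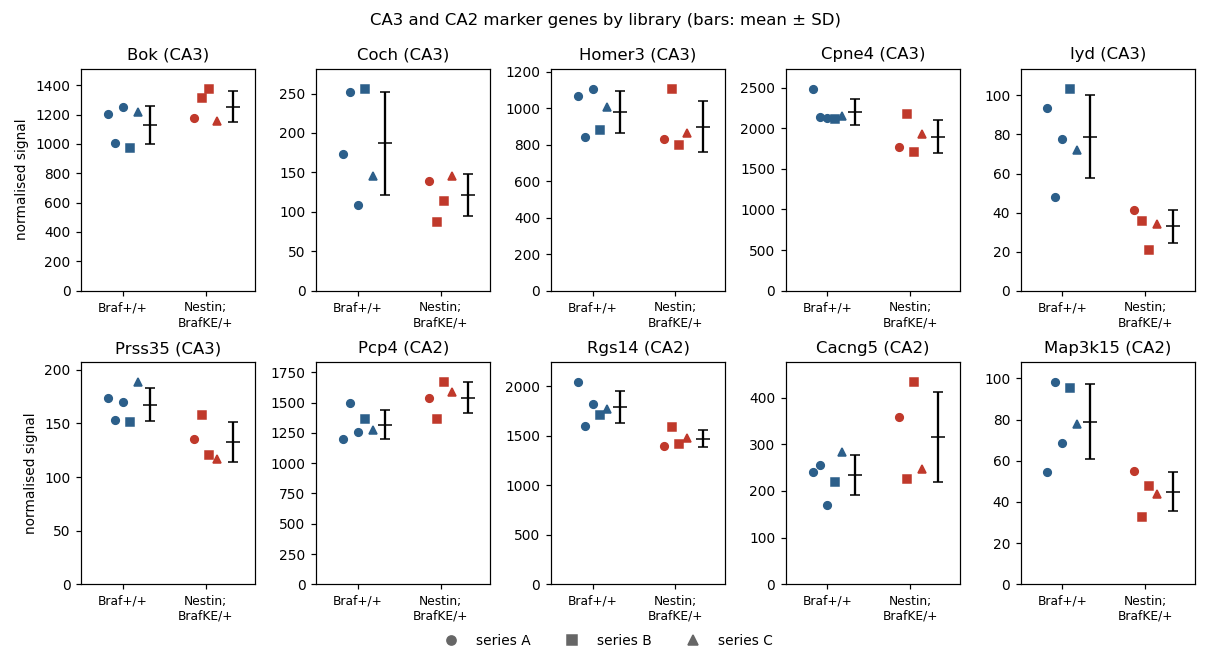
Normalised signal of each CA3 and CA2 marker gene (y axis, linear from 0) in the 5 Braf+/+ and the 4 Nestin;BrafKE/+ libraries, with the symbol giving the series and black bars the mean ± SD. The groups are separate for Iyd, from 21.0 to 41.2 against 48.0 to 103, and for Rgs14, from 1393 to 1587 against 1601 to 2036, and overlap for the other 8.

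Levels of different genes were compared per kilobase of annotated exon. In Braf+/+ libraries Pcp4 was the most abundant, at 1176 ± 105 per kb (SD, n = 5), and Bok followed with 462 ± 52.6 and Cpne4 with 362 ± 26.3. Rgs14 (204 ± 18.5) and Homer3 (195 ± 22.9) came next and did not differ beyond their SDs. Cacng5 (53.5 ± 9.89), Coch (45.2 ± 15.8), Prss35 (32.8 ± 3.00), Iyd (30.3 ± 8.17) and Map3k15 (18.2 ± 4.20) were lowest, and each of these overlapped the next within 1 SD. Among control animals the coefficient of variation was 34.9% for Coch and 27.0% for Iyd, against 7.27% for the abundant Cpne4.

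Iyd encodes iodotyrosine deiodinase, an enzyme that recovers iodide from iodotyrosines in the thyroid, and in the hippocampus its transcript marks CA3. Its gene (ENSMUSG00000019762) lies on chromosome 10, 3490233 to 3505854 in GRCm39, on the plus strand, with no other annotated gene overlapping it. The sequence before its start is shown because Iyd had the lowest p of the 10, together with that of Pcp4, which was higher in Nestin;BrafKE/+. Both come from RefSeq (GRCm38.p6) and were placed on GRCm39 by exact match, the first at chr10:3490024-3490262 and the second at chr16:96268556-96268805, both on the plus strand. The last 30 bases of the Iyd window lie past the gene start of the Gencode annotation. Capitals mark the letters of a TATA box (TATAAA).
Iyd: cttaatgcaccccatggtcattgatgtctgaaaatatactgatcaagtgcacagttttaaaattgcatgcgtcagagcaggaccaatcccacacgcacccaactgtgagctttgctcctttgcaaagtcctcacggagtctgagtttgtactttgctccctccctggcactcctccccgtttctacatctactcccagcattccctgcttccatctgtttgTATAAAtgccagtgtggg
Pcp4: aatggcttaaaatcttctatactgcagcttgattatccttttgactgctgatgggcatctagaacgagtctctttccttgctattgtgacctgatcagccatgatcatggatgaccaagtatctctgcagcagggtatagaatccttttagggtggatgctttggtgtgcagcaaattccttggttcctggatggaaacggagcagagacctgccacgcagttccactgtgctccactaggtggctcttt
The TATA letters of Iyd begin 29 bases before the RefSeq start of transcription. They lie within the last 30 bases of the window, past the gene start of the Gencode annotation. These letters, searched on both strands, were found within 250 bases of the start in 12.4% of 32851 RefSeq promoters. A cAMP response element (TGACGTCA), an AP-1 site (TGACTCA) and an ETS site (CCGGAAGT) were searched in the same way, and none was found in either window. They were found in 1.55%, 4.46% and 2.88% of all promoters. RefSeq promoters were at hand for 8 of the 10 genes, not for Rgs14 and Map3k15.

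Iyd had normalised signals of 41.2, 35.8, 21.0 and 33.9 in Nestin;BrafKE/+ replicates 1 to 4, and of 93.4, 48.0, 77.7, 103 and 72.1 in Braf+/+ replicates 1 to 5. The mutant libraries all lay below the controls, and the nearest control was replicate 2. The means were 32.9 ± 8.56 (SD, n = 4) and 78.9 ± 21.3 (SD, n = 5), and the log2 fold change was -1.23 (SE 0.29, 95% confidence interval -1.87 to -0.59, adjusted p = 0.0505). Each series had the lower level in Nestin;BrafKE/+, with log2 differences of -0.76 (A), -1.88 (B) and -1.07 (C). A two-sided exact permutation test gave p = 0.0159 over all 9 libraries, and p = 0.0417 with labels permuted within series, the smallest those can give. The values had already been adjusted for batches, which permuting labels over all libraries does not repeat, so the p-value over all libraries may be too small. The adjusted p of Iyd lay close to the threshold and moved across it with the setting. Iyd passed with a pseudocount of 8 (adjusted p = 0.0474), with robust eBayes (0.0403) and without Braf+/+ replicate 2 (0.0301). It also passed without the series term (0.00761), where 2260 of all genes passed on values already adjusted for batches. Without Braf+/+ replicate 4, the only control of series B, its adjusted p was 0.291. The mutant libraries of series B did not enter the genotype difference in that fit.

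The other scarce CA3 markers were Coch and Prss35. Coch encodes cochlin, a secreted matrix protein best known from the inner ear. Its signal was 139.5, 86.4, 114 and 146 in Nestin;BrafKE/+ and 174, 252, 109, 256 and 145 in Braf+/+. The 2 high controls were replicates 2 and 4, the libraries with the most choroid plexus signal, and the other 3 controls fell in or near the mutant range. The log2 fold change was -0.58 (SE 0.29, 95% confidence interval -1.20 to 0.05, adjusted p = 0.312), and the 3 series gave -0.27 (A), -1.36 (B) and 0.00 (C). When both choroid-rich controls were left out the log2 fold change of Coch was 0.01 (adjusted p = 0.989). Series B then had no control, so its mutant libraries no longer entered the genotype difference, which rested on series A and C. Prss35 encodes a secreted protein of the serine protease family. Its signal was 136, 158, 121 and 117 in Nestin;BrafKE/+ and 174, 153, 170.2, 152 and 188 in Braf+/+, so that 3 of the 4 mutant libraries lay below all controls. On the log2 scale the change was -0.34 (95% confidence interval -0.65 to -0.03, adjusted p = 0.232), and it had the same sign in all 3 series.

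Cpne4 encodes a copine, a calcium-dependent phospholipid-binding protein, and its gene is overlapped on the same strand by the predicted gene Gm55859. Its values were 1774, 2176, 1712 and 1931 in Nestin;BrafKE/+ and 2489, 2136, 2128, 2111 and 2154 in Braf+/+. Replicate 2 of the mutants reached the control range and the other 3 lay below it. The log2 fold change was -0.22 (95% confidence interval -0.41 to -0.03, adjusted p = 0.203), and the 3 series gave -0.34 (A), -0.13 (B) and -0.16 (C). Homer3 encodes a postsynaptic scaffold that binds group I metabotropic glutamate receptors. Its signal ran from 799 to 1105 in Nestin;BrafKE/+ and from 844 to 1107 in Braf+/+, and the log2 fold change was -0.13 (95% confidence interval -0.40 to 0.14, adjusted p = 0.615). Bok, a member of the BCL-2 family that regulates cell death, was the CA3 marker with a higher mean in Nestin;BrafKE/+. Its signal ran from 1155 to 1376 against 975 to 1249 in controls, with a log2 fold change of 0.15 (95% confidence interval -0.07 to 0.37, adjusted p = 0.462). Without Braf+/+ replicate 4, the only control of series B, the log2 fold change was -0.01. The intervals of Homer3 and Bok exclude a change of a factor of 2 in either direction.

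Rgs14 encodes a regulator of G protein signalling that also binds Ras and Raf proteins and holds back plasticity in CA2 neurons. Its gene (ENSMUSG00000052087) lies on chromosome 13, 55517258 to 55535857 in GRCm39. Its signal was 1393, 1587, 1416 and 1477 in Nestin;BrafKE/+ and 2036, 1601, 1816, 1705 and 1768 in Braf+/+. All mutant libraries lay below all controls, although the highest mutant and the lowest control, both replicate 2 of their group, nearly met. The means were 1468 ± 86.4 (SD, n = 4) and 1785 ± 162 (SD, n = 5), and the log2 fold change was -0.28 (SE 0.08, 95% confidence interval -0.46 to -0.10, adjusted p = 0.0934). The 3 series gave log2 differences of -0.38 (A), -0.19 (B) and -0.26 (C). In the same exact permutation test as for Iyd, two-sided, p was 0.0159 without regard to series, with the limit given there, and 0.0833 within series. Among the alternatives run, Rgs14 passed without the series term (adjusted p = 0.0176), where 2260 of all genes passed, and in no other.

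Map3k15, on chromosome X (158771429 to 158906347), encodes a kinase at the head of stress-activated MAP kinase cascades. It was the scarcest of the 10 per kilobase, with a signal of 55.2, 32.8, 47.9 and 43.9 in Nestin;BrafKE/+ and 54.6, 98.0, 68.7, 95.4 and 78.1 in Braf+/+. The highest mutant library and the lowest control nearly coincided, and the 2 highest controls were again replicates 2 and 4. The log2 fold change was -0.79 (SE 0.24, 95% confidence interval -1.33 to -0.25, adjusted p = 0.120), and the 3 series gave -0.37 (A), -1.25 (B) and -0.82 (C). With both choroid-rich controls left out, and so from series A and C alone, it was -0.43 (adjusted p = 0.560). Without the series term Map3k15 passed (adjusted p = 0.0235). The predicted gene Gm8682 overlaps the span of Map3k15 on the same strand, and whether their exons overlap was not examined.

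**Figure D2:**
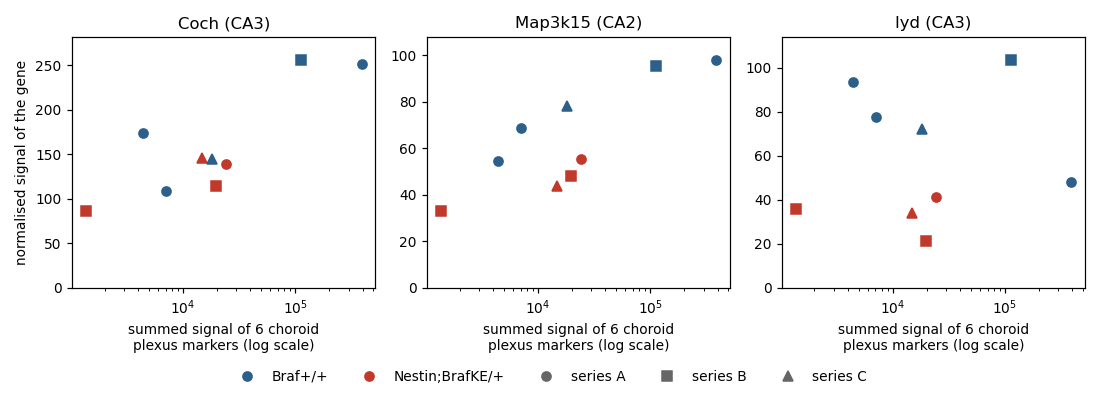
Normalised signal of Coch, Map3k15 and Iyd (y axes, linear from 0) against the summed signal of 6 choroid plexus markers (x axes, log scale) in the 9 libraries. Coch and Map3k15 were highest in the 2 controls at the right, at 252 and 256 for Coch and 98.0 and 95.4 for Map3k15, whereas Iyd was at 48.0 and 103 there.

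The 2 controls richest in choroid plexus markers thus also held the most Coch and Map3k15. Among the other controls Map3k15 rose with the choroid plexus signal and Coch did not. The part of the choroid plexus markers in those levels was not tested. All 6 markers had lower means in Nestin;BrafKE/+, 0 of 6 passed the threshold, and their median log2 fold change was -1.59. For Iyd the same 2 controls were its lowest and highest, and its log2 fold change without them was -1.05 (adjusted p = 0.176). The corresponding values were -0.38 for Rgs14 (adjusted p = 0.129) and 0.32 for Pcp4 (adjusted p = 0.185). None of the 10 passed in that fit, in which 58 of all genes did and which rested on series A and C alone. Thalamus, striatum and neocortex markers were listed because Pcp4 and Rgs14 are also expressed outside the hippocampus. Of these, 0 of 7 thalamus markers, 1 of 6 striatum markers (Ppp1r1b, lower) and 1 of 6 markers of the subiculum and neocortex (Nr4a2, lower) passed in the main fit, against 2.88% of all genes. The summed signal of thalamus markers ran from 2214 to 2845 in Nestin;BrafKE/+ and from 2299 to 2724 in Braf+/+. That of striatum markers ran from 2415 to 2823 in Nestin;BrafKE/+ and from 2847 to 3232 in Braf+/+, so the groups were separate. That of subiculum and neocortex markers ran from 4460 to 4900 in Nestin;BrafKE/+ and from 4270 to 5313 in Braf+/+. Whether tissue outside the hippocampus played a part in the levels of Pcp4 and Rgs14 was not tested.

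The other 2 CA2 markers were higher in Nestin;BrafKE/+. Pcp4 encodes a small calmodulin-binding protein that speeds the exchange of calcium on calmodulin, and the predicted gene Gm49948 overlaps it on the same strand. Its signal was 1539, 1365, 1667 and 1589 in Nestin;BrafKE/+ and 1196, 1500.2, 1259, 1364 and 1271 in Braf+/+, with 3 of 4 mutant libraries above all controls. The log2 fold change was 0.22 (SE 0.09, 95% confidence interval 0.03 to 0.42, adjusted p = 0.199), and it was above 0 in all 3 series. Cacng5 encodes an auxiliary subunit of AMPA-type glutamate receptors. It was at 357, 226, 432 and 247 in Nestin;BrafKE/+ and at 240.5, 256, 169, 219 and 284 in Braf+/+. Mutant replicates 1 and 3 stood above all controls and the other 2 fell among them. A log2 fold change of 0.40 was estimated (95% confidence interval -0.09 to 0.90, adjusted p = 0.379), and the 3 series gave 0.71 (A), 0.51 (B) and -0.20 (C).

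**Figure D3:**
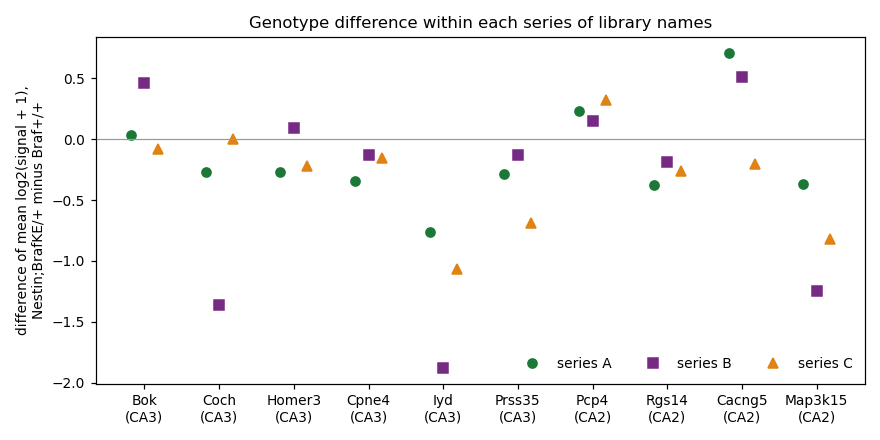
Difference of the mean log2(signal + 1), Nestin;BrafKE/+ minus Braf+/+ (y axis), of each marker gene within series A, B and C. Iyd, Map3k15, Rgs14, Cpne4 and Prss35 were below 0 and Pcp4 above 0 in all 3 series, and Bok, Coch, Homer3 and Cacng5 changed sign between series.

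Within a series the comparison rests on few animals, since series B has 1 control library and series C 1 library of each genotype. As a description of the set, the mean over the 6 CA3 markers of the log2 signal less each gene's mean ran from -0.37 to -0.13 in Nestin;BrafKE/+ and from 0.06 to 0.29 in Braf+/+. The difference was -0.39, and the 3 series gave -0.31 (A), -0.49 (B) and -0.37 (C). Iyd carried much of it. Without Iyd the difference was -0.22, with separate groups, and without Iyd and Coch it was -0.13, with groups that overlapped. For the 4 CA2 markers the mean ran from -0.29 to 0.11 in Nestin;BrafKE/+ and from -0.11 to 0.18 in Braf+/+, and the difference of -0.11 was made of values of both signs. The neighbouring fields gave values of both kinds. For 8 CA1 markers the difference of the same measure was 0.19, with Wfs1 and Fibcd1 past the threshold and higher. For 9 dentate granule markers it was -0.36, with Plk5 and Dsp past the threshold and lower. The groups were separate in both, so separate groups were not particular to CA3. The CA1 mean ran from 0.07 to 0.16 in Nestin;BrafKE/+ and from -0.21 to -0.05 in Braf+/+. The dentate mean ran from -0.28 to -0.12 in Nestin;BrafKE/+ and from 0.08 to 0.21 in Braf+/+. The dentate list was uneven, since 5 of its 9 genes were higher and the median of its log2 fold changes was 0.04. Of 7 markers shared by excitatory neurons 0 passed, with 4 higher and 3 lower and a median log2 fold change of 0.02.

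A further 12 genes known from CA2 or CA3 were examined to set the 10 beside others of the same fields. Of these, 11 were tested and 2 passed, Ntf3 and Ptpn5, both CA2 genes, against 2.88% of all genes tested. The list was chosen with earlier results of these data known, so this count is only a description. Ntf3 encodes neurotrophin-3, a growth factor for neurons expressed in CA2 and the dentate gyrus. It was at 23.1, 33.8, 34.9 and 37.9 in Nestin;BrafKE/+ and at 125, 141, 116, 100.4 and 97.1 in Braf+/+, far apart in every series. Limma gave a log2 fold change of -1.82 with an SE of 0.21 (adjusted p = 0.00261), and Ntf3 passed in all 9 fits that left out a library. Ptpn5 encodes STEP, a phosphatase of neurons that inactivates ERK. It rose from 2143 ± 141 (SD, n = 5) to 3156 ± 254 (SD, n = 4), with values of 3418, 3020, 3314 and 2871 in Nestin;BrafKE/+ and 2212, 2038, 1997, 2121 and 2348 in Braf+/+. The log2 fold change of 0.56, with an SE of 0.07, had an adjusted p of 0.0048. Ptpn5 missed the threshold when Nestin;BrafKE/+ replicate 1 was left out (log2 fold change 0.45, adjusted p = 0.0672), which left series A without a mutant library. It also missed it when both choroid-rich controls were left out (0.53, adjusted p = 0.0791), which left series B without a control. In these fits 42 and 58 of all genes passed.

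The remaining 9 tested genes had adjusted p-values from 0.10 upward. Elavl2, an RNA-binding protein of neurons, came nearest, at 1446, 1439, 1409 and 1624 in Nestin;BrafKE/+ and 1880, 1771, 1678, 1898 and 1604 in Braf+/+ (log2 fold change -0.26, adjusted p = 0.10). It passed in 4 of the alternatives. For Nectin3, an adhesion protein of mossy fibre synapses, the log2 fold change was -0.26 (adjusted p = 0.190), and for Amigo2, an adhesion protein by which CA2 is often recognised, it was -0.18 (adjusted p = 0.370). For Grik4, a kainate receptor subunit of CA3, it was 0.09, with a 95% confidence interval from -0.12 to 0.31. Those of Spock1, Ociad2, Adora1 and Actn2 lay between -0.08 and -0.02, and that of Necab2 was 0.09. Avpr1b, the vasopressin receptor of CA2, was too scarce to be tested, at 2.99 to 5.96 in Nestin;BrafKE/+ and 4.02 to 11.9 in Braf+/+.

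**Figure D4:**
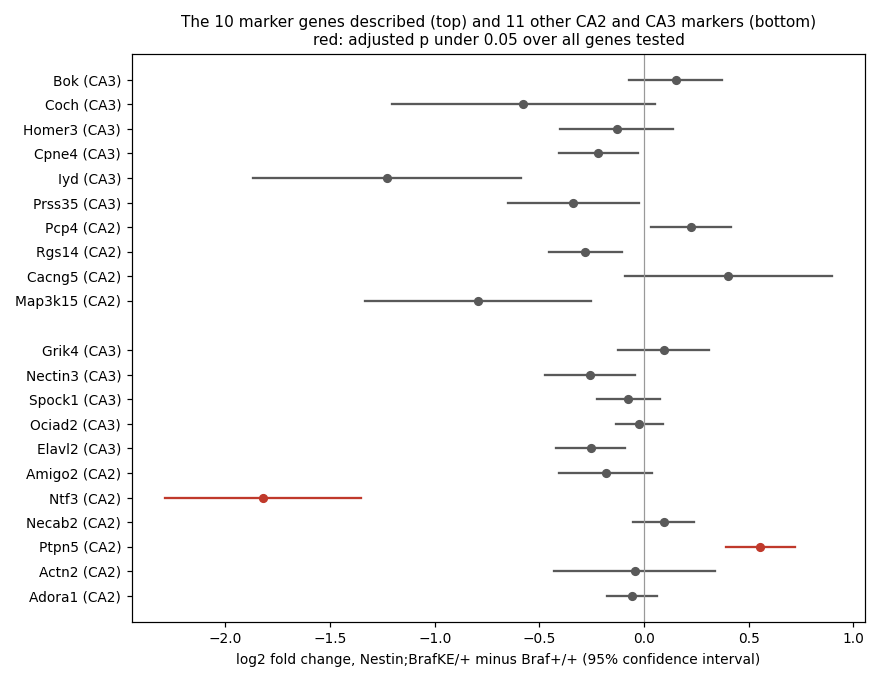
Log2 fold change with its 95% confidence interval (x axis, Nestin;BrafKE/+ minus Braf+/+) of the 10 marker genes at the top and of 11 other CA2 and CA3 genes at the bottom, with an adjusted p under 0.05 in red. The intervals of Ntf3, from -2.29 to -1.35, and of Ptpn5, from 0.39 to 0.72, belong to the 2 genes that passed, and that of Iyd ran from -1.87 to -0.59.

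**Figure D5:**
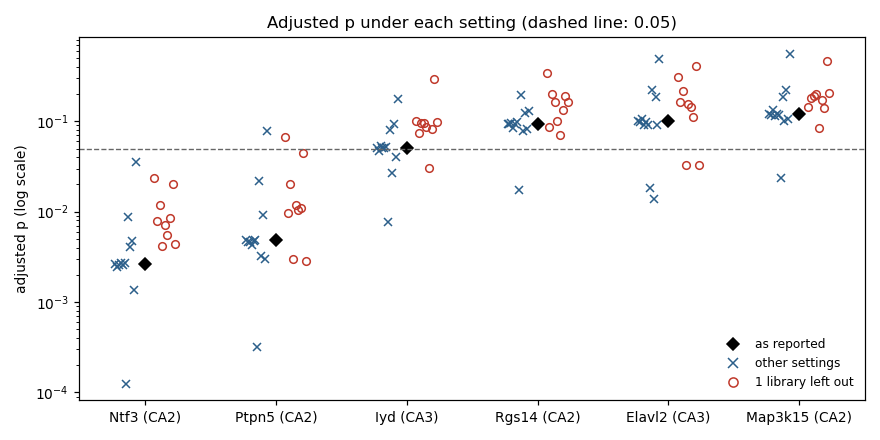
Adjusted p (y axis, log scale) of 6 genes in the fit reported (diamonds), under the other settings (crosses) and with 1 library left out (circles), with the threshold of 0.05 as a dashed line. Ntf3 stayed below the line in every fit, and Rgs14 and Map3k15 crossed it in 1 fit each. Iyd lay on both sides of it, from 0.00761 without the series term to 0.291 without Braf+/+ replicate 4.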

How the data were processed

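RNA of dissected hippocampus was sequenced in 9 stranded mRNA libraries, 1 per animal. Per the labels and the study's methods, the authors trimmed with Trim Galore, aligned with STAR to GRCm39, quantified with Salmon, and adjusted for unnamed batches with DESeq2. The deposited values are a signal in normalised counts. Each is a whole multiple of 1 step per library (tolerance 0.01), but the totals of all libraries are nearly equal and these whole numbers are not reads, so no count model was used. Precision therefore rests on how libraries of 1 group vary.

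In R 4.3.3, limma 3.58.1 (lmFit and trended eBayes) was fitted to log2(value + 1) for all genes whose mean value reached 10. Terms were genotype and the naming series. Fold changes are on the log2(value + 1) scale, which understates those of low genes. For the listed CA2 and CA3 genes they were nearly the same without the series term (Rgs14 -0.2799 with it and -0.2794 without), while adjusted p-values were lower without it. Two-sided p-values were adjusted over every tested gene (Benjamini-Hochberg), and 0.05 was the threshold. Single genes were also tested with exact permutation tests. Replicate numbers shared between the groups did not pair animals. The script was tested on simulated data.

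The genes, lists and tests were chosen with earlier results of these data known. Text names the 10 markers, 12 other CA2 and CA3 genes, Braf, the genes nearest in pattern, and members of other lists past the threshold. Coordinates and exon lengths came from Gencode on GRCm39, in which 18179 of 18275 gene IDs were found. The symbol Ctgf on the neocortex list was not found in the table. Other lists (choroid plexus, thalamus, striatum, CA1, dentate, mossy cell, inhibitory neuron, glia, meninges and blood) were read as counts. The fit without both choroid-rich controls was added after the data had been seen. Figures were drawn with matplotlib 3.10.9.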

Additional observations from a re-analysis of the deposited data

Results flagged for a closer look

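Among 42 groups of values (21 genes in 2 groups), 1 had a value that stood apart from the rest of the group, where chance gives about 1 in 20. It was Cpne4 in Braf+/+ replicate 1, at 2489, while the other 4 controls lay between 2111 and 2154. Without that library the log2 fold change of Cpne4 was -0.19 (adjusted p = 0.262).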

How the results depend on the processing

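The count of 0 of 10 markers past the threshold held with a pseudocount of 0.5, no filter, TMM factors, a minimum mean of 50, 4 name prefixes, quantile normalisation, array quality weights and both choroid-rich controls left out. It was 1, Iyd in each case, with a pseudocount of 8 and with robust eBayes, and 3 without the series term (1 CA3 marker, Iyd, and 2 CA2 markers, Rgs14 and Map3k15). With replicate numbers as a block it was 1, a CA3 marker, again Iyd (adjusted p = 0.0267). Those numbers do not pair animals, since deviations of same-numbered libraries correlated between -0.39 and 0.41 and only 1 of 4 mutant libraries correlated best with its own number. All genes past the threshold numbered 1405 with the block, 2260 without the series term, 165 with 4 name prefixes and 258 with array quality weights, against 466. With 1 library left out they numbered 42 to 371, with 42 without Nestin;BrafKE/+ replicate 1, 97 without Braf+/+ replicate 4, 169 without Nestin;BrafKE/+ replicate 3 and 278 without Braf+/+ replicate 1, so the share of all genes called moved widely too. In those fits the count was 0 to 1 for the 10 markers, 0 to 1 for CA3 and 0 to 0 for CA2, and 1 to 3 for the other CA2 and CA3 genes, whose 2 calls became 1 (Ntf3) with both choroid-rich controls left out. Of 441 values of single genes, 417 kept their direction and their side of the threshold. Signs turned for Grik4, Actn2 and Adora1, whose log2 fold changes were near 0, and for Bok (0.15) and Coch (-0.58). Leaving out 1 library at a time, Bok ran from -0.0127 to 0.234 and Grik4 from -0.0267 to 0.2005 (both lowest without Braf+/+ replicate 4), Actn2 from -0.131 to 0.0516 and Adora1 from -0.1175 to 0.010. Actn2 was at 0.0405 without Nestin;BrafKE/+ replicate 4 or Braf+/+ replicate 5, and at 0.0131 with 4 name prefixes. With both choroid-rich controls left out, Bok was at -0.0696, Coch at 0.0146, Grik4 at -0.0694 and Actn2 at 0.0152. In a fit with a series term, a series left with only 1 genotype no longer enters the genotype difference. This held for series A without Nestin;BrafKE/+ replicate 1, and for series B without Braf+/+ replicate 4 or both choroid-rich controls. For series C it held without Nestin;BrafKE/+ replicate 4 or Braf+/+ replicate 5. What else lay behind these shifts was not tested. The number of animals limits what could be detected: the 95% confidence intervals of Iyd, Coch and Map3k15 spanned more than 1 log2 unit.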

Other observations

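Genes of like pattern were sought among 11864 genes outside these lists with a mean value of at least 100, by the root mean square difference of their centred log2 signal from the mean CA3 and the mean CA2 level over the 9 libraries. For CA3, whose level had an SD of 0.226, the nearest were Fam122b (0.0584), Kcnq3 (0.0651), which encodes a subunit of the M-type potassium channel, and Dach1 (0.0664), a transcription factor. For CA2, with an SD of 0.152, they were Slc35f1 (0.0455), Usp29 (0.0543) and Gnal (0.0560), which encodes a G protein alpha subunit. A difference smaller than the SD of the level was common, with 5147 genes for CA3 and 3269 for CA2.

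Of 5 markers of dentate hilar mossy cells, which lie beside CA3, 0 passed the threshold or an unadjusted p of 0.05 in limma, with 2 higher and 3 lower and a median log2 fold change of -0.14. Of the other lists read, 3 of 8 astrocyte markers (Gfap, Aldoc and S100b), 4 of 7 oligodendrocyte markers (Mobp, Mog, Mag and Cldn11), 1 of 8 inhibitory neuron markers (Npy), 1 of 5 meninges markers (Col1a1), 0 of 6 microglia markers and 0 of 5 blood markers passed, all of those that passed being higher in Nestin;BrafKE/+. Among all genes tested, 1.52% passed as higher and 1.36% as lower.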
